A study of Mus musculus with 32 samples.

Results

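Ciart, formerly listed as Gm129 or Chrono, encodes a repressor of the circadian clock. It is followed here through 32 mouse livers, with the 2 array probes that carry its name. Both probes passed the filter on dim probes, 2 of 12026 named probes kept, and Ciart is 1 of 8853 genes tested. The gene was chosen because its level differed with ezetimibe in earlier results of these data. Its levels and its ezetimibe differences are therefore given as a description, with no test. Tests are given for rosuvastatin and for the relation to other genes within groups, which were not used in the choice.

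All mice were female ApoE3Leiden mice, a transgenic strain with a variant of human apolipoprotein E, and all received a high-cholesterol diet. One group received the diet alone (HC). The other groups received rosuvastatin in it (HC+RSV), ezetimibe in it (HC+EZE) or rosuvastatin together with ezetimibe (HC+RSV+EZE), and 8 individual livers per group were each measured on an array. Rosuvastatin is a statin, which inhibits cholesterol synthesis, and ezetimibe blocks the uptake of cholesterol from the intestine. Drug doses, the ages of the mice and the time of day at which livers were taken are not given in the sources used here, and further samples that the labels count are not analysed here.

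In the mammalian clock, the proteins CLOCK and BMAL1, the product of Arntl, bind E-boxes and switch on genes that repress them in turn. These repressors include the Period and Cryptochrome proteins and CIART, which binds BMAL1 and represses its activity. The liver has a strong clock of its own, and the RNA of clock genes there rises and falls with the time of day and with feeding. In bulk liver RNA, fewer cells of a type and less RNA per cell cannot be told apart.

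Ciart lies on chromosome 3 from 95878500 to 95882257 on the minus strand of GRCm38.p6 and is annotated as protein coding. The RefSeq promoter table counts from a start at 95882228, which lies 29 bases inside these outer bounds of the gene. The window of 250 bases before that start, chr3:95882229-95882478 on the minus strand, is printed because it holds the binding letters of the factors that the repressor acts on. The E-box letters CACGTG are in capitals, and the sequence runs 5′ to 3′ towards the gene.
Ciart, upstream window: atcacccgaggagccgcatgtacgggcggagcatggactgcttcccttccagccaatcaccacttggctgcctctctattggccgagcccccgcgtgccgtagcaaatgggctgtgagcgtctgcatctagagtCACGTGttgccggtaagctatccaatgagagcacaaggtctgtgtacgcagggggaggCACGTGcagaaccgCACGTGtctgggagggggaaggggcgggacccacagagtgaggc

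The window held 3 E-boxes, whose first bases lay at -116, -58 and -44 from the start that the table uses. Among the 32851 windows of this length in the RefSeq table, 6.02% held at least 1 such E-box and 0.0609% held 3 or more, 20 windows in all. The E-box is its own reverse complement, so 1 match stands for both strands, and the 3 do not overlap each other. Searched on both strands, the window held 0 copies of the D-box letters TTANGTAA, of the ROR element letters NTAGGTCA and of the cAMP response element TGACGTCA. These were found in 2.06%, 2.22% and 1.55% of all windows. A match describes letters in this window and is no evidence of binding.

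The whole data set needs a short account first. Arrays had mean intensities between 126.1 and 279.9, and 10724 to 13444 probes per array were detected, which here means a detection p under 0.05. The hepatocyte markers had 7 of 8 members measured, all detected on all 32 arrays, with a mean log2 level of 11.6 in each group. The 6 chips each held arrays from all 4 groups. On them, every liver with ezetimibe occupied a position from F to H and every other liver one from A to C, so position and ezetimibe cannot be told apart. A set of 4 arrays had the lowest mean correlation with the others, 0.925 to 0.951, namely replicate 3 of HC+RSV, replicate 1 of HC+EZE and replicates 1 and 8 of HC. Replicates came from individual livers, and the number of arrays limits the precision.

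Ciart RNA was low in the livers of mice on the diet alone and higher than in any of these in every liver with ezetimibe. The brighter probe, called probe 1, had deposited intensities of 17.9 at the lowest, 27.95 at the median and 45 at the highest in HC. In HC+EZE they were 65.3, 127.2 and 151.4, and in HC+RSV+EZE 60.7, 122.25 and 180. Every liver of both ezetimibe groups thus lay above the highest HC liver, without any normalization between arrays. In HC+RSV the intensities ran from 2.1 through a median of 26.5 to 144.9, a range that spans those of HC and most of the ezetimibe groups.

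After background correction and quantile normalization the log2 level of probe 1 in HC was 4.81 at the lowest, 5.52 at the median and 5.81 at the highest, with a mean of 5.43 ± 0.38 (SD, n = 8). In HC+RSV it was 4.41, 5.35 and 6.94, with a mean of 5.51 ± 0.93. In HC+EZE it was 6.66, 7.04 and 7.63, with a mean of 7.09 ± 0.31, and in HC+RSV+EZE 6.54, 6.92 and 8.10, with a mean of 7.19 ± 0.59. The order of the means was HC, HC+RSV, HC+EZE and HC+RSV+EZE. The first pair and the last pair of neighbours differed by less than their spread, and the gap lay between the groups without and with ezetimibe. Probe 1 was detected on all arrays but 1, which was in HC+RSV.

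The dimmer probe 2 gave the same order of groups except for the last pair. Its means were 5.23 ± 0.33 (SD, n = 8) for HC and 5.25 ± 0.86 for HC+RSV, against 6.92 ± 0.32 for HC+EZE and 6.90 ± 0.59 for the group with both drugs. It was detected on all arrays of the other groups but on 5 of 8 in HC+RSV, so 3 values of that group lie at background. After removal of the group means, both probes correlated over the 32 livers at r = 0.874, and by group at 0.781 (HC), 0.908 (HC+RSV), 0.560 (HC+EZE) and 0.922 (HC+RSV+EZE). The ordering of livers inside a group was thus shared by both probes, least in HC+EZE, where Ciart varied least.

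**Figure D1:**
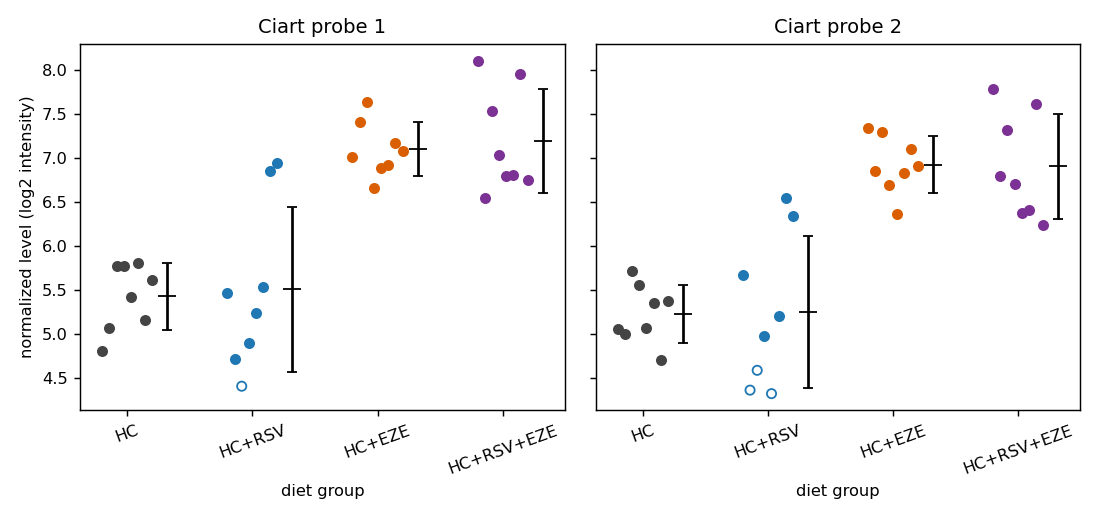
Normalized log2 intensity of the 2 Ciart probes in each liver by diet group (n = 8 per group); filled points are detected arrays, open points are not, and the bars are the group mean ± SD. All livers with ezetimibe lie above all HC livers on both probes, while 2 HC+RSV livers reach the range of the ezetimibe groups.

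As a description of the differences that led to the choice of the gene, probe 1 was 1.67 ± 0.28 (log2 difference ± SE of the limma fit, 95% interval 1.09 to 2.24) higher in HC+EZE than in HC, 3.17-fold. It was 3.39-fold higher in HC+RSV+EZE than in HC and 3.21-fold higher in HC+RSV+EZE than in HC+RSV. On probe 2 the same folds were 3.23, 3.19 and 3.14. On the authors' log2 values the difference of HC+RSV+EZE from HC+RSV was 2.50 instead of 1.68. The first 2 of the comparisons share the HC livers and the last 2 share the livers with both drugs, so they are not independent of each other.

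How far single livers were separated depended on the group without ezetimibe. Against HC, all 8 livers of each ezetimibe group lay above the highest HC liver on both probes. Of all genes 0.0339% showed this in HC+EZE and 0.0678% in the group with both drugs, and nothing is read from these shares because the gene was chosen on these differences. Against HC+RSV, 5 of 8 HC+EZE livers and 4 of 8 HC+RSV+EZE livers lay above the highest HC+RSV liver on probe 1. On probe 2 these counts were 7 and 5.

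The differences with rosuvastatin were not used in the choice of the gene, though the same livers enter the ezetimibe differences. Probe 1 differed by 0.08 ± 0.28 (95% interval -0.50 to 0.65) between HC+RSV and HC, which did not pass in the limma fit over all genes (adjusted p = 0.99976). In HC+RSV+EZE against HC+EZE the difference was 0.09 ± 0.28 (-0.48 to 0.67, limma adjusted p = 0.99998). The interaction of the drugs was 0.02 ± 0.40 (-0.80 to 0.83). It is the difference of 2 of the ezetimibe differences and is given with no test. On probe 2 the 3 values were 0.02, -0.02 and -0.04. The interval for the statin alone allows log2 differences from -0.50 to 0.65, so a p above the threshold does not show equal levels. The sign of each of these small values depended on the processing.

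The group mean hides what set HC+RSV apart, which was its spread. Its 2 highest livers, replicates 7 and 8, stood at 6.84 and 6.94, the next at 5.54, and its lowest at 4.41. Thus 2 HC+RSV livers lay above the highest HC liver and 2 lay below the lowest. The SD of Ciart lay at the 98.8 percentile of all genes' SDs in HC+RSV and at the 95.5 percentile in HC+RSV+EZE, but at 64.6 in HC and 59.6 in HC+EZE. The median gene had an SD of 0.33 in HC+RSV and 0.32 in HC. These percentiles are descriptions, and the difference in spread between groups was not tested.

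Of the 22 measured members of the clock list, 13 had their largest SD in HC+RSV, 6 in HC, 2 with both drugs and 1 in HC+EZE. The median SD of all genes was also largest in HC+RSV, at 0.33 against 0.32 (HC), 0.28 (HC+EZE) and 0.27 (both drugs). The matching share of all genes was not counted, so nothing is read from the count of 13. Usp2, a clock-controlled deubiquitinase, had an SD of 1.49 in HC+RSV against 0.37 in HC, 0.27 in HC+EZE and 0.51 in the group with both drugs. For Dbp, an output transcription factor of the clock, the SDs in the same order were 1.27, 0.45, 0.39 and 0.27. For the repressor Per2 they were 0.76, 0.39, 0.25 and 0.42. Others went the other way: Noct, a clock-controlled enzyme gene, had an SD of 0.58 in HC+RSV against 0.82 in HC, and Nampt 0.33 against 0.47.

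Array position and chip moved with parts of this pattern. Within HC+RSV the 4 livers at position B stood between 4.41 and 5.47 and the 4 at position C between 5.24 and 6.94, with medians of 4.81 and 6.19. In the other groups the medians of probe 1 at the lower and higher letter were 5.60 and 5.39 in HC and 7.32 and 6.92 in HC+RSV+EZE, lower at the higher letter each time, as in HC+EZE. The part of position in the HC+RSV spread was not tested. With position as a covariate, the difference of HC+EZE from HC was 0.28 ± 1.15, since position and ezetimibe nearly coincide in that fit.

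Each of the 6 chips held livers with and without ezetimibe, and Ciart was higher with ezetimibe on all 6. The difference of the means of probe 1 was 2.98 on chip 1, 1.29 on chip 2, 0.963 on chip 3, 2.14 on chip 4, 1.57 on chip 5 and 1.28 on chip 6. On chips 3 and 6 single livers overlapped, since each held 1 of the 2 high HC+RSV livers. The 3 highest livers of all, HC+RSV+EZE replicates 1 and 7 at 8.10 and 7.95 and HC+EZE replicate 3 at 7.63, lay on chip 1. So did the lowest, HC+RSV replicate 3 at 4.41, whose array was among the 4 with the lowest correlations.

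**Figure D2:**
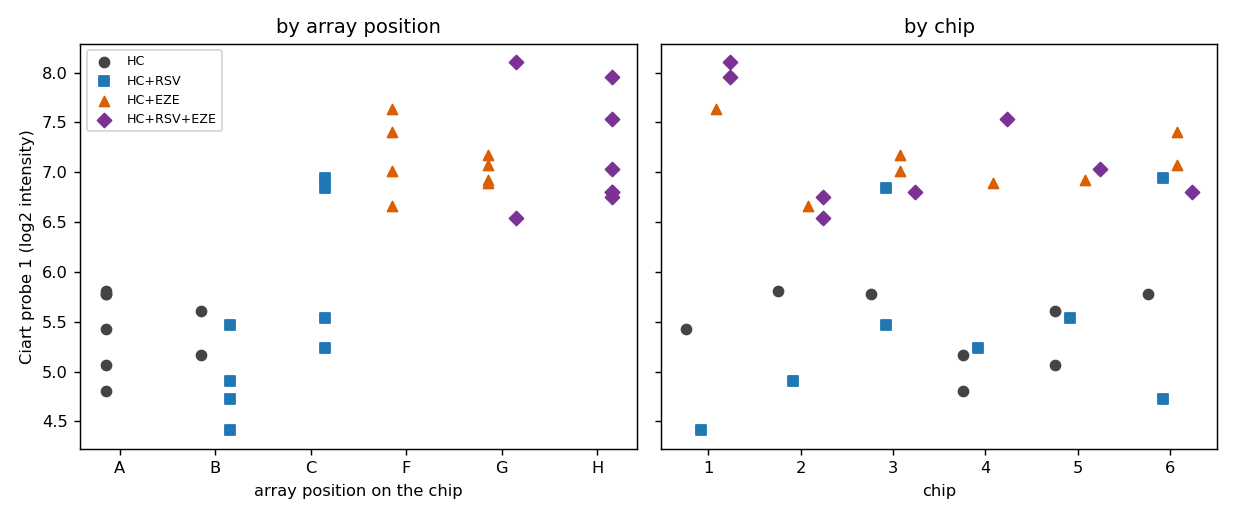
Ciart probe 1 (log2 intensity) in each of the 32 livers by array position on the chip (left) and by chip (right), with colour and shape giving the diet group. Positions A to C hold no ezetimibe liver and F to H hold only ezetimibe livers, and chip 1 holds the 3 highest livers and the lowest.

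Measures of the arrays and of cell makeup followed Ciart within groups at an absolute r of up to 0.344. The group-centred level correlated with the mean intensity of the array at r = -0.016 (rho = -0.063, n = 32), with the number of detected probes at -0.258 (rho = -0.331) and with the mean correlation to other arrays at 0.300 (rho = 0.0997). The mean of the 7 hepatocyte markers followed it at -0.098. The macrophage and Kupffer cell list had 6 of 10 members measured, all detected on all arrays, with group means of 9.20 to 9.51 and r = -0.084. The 2 measured erythroid markers, with group means of 10.1 to 10.5, had r = 0.344, and the lists of endothelial, stellate, bile duct and lymphocyte markers lay between -0.230 and 0.081. The part of these in the results was not tested.

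The relation of Ciart to all other genes was then measured between livers of the same group, after removal of the group means. A limma model with the 4 groups and the group-centred level of probe 1 was fitted to the 8852 other genes. At an adjusted p under 0.05, 6 genes (0.0678%) were higher in livers with more Ciart and 1 (0.0113%) was lower. At an unadjusted p under 0.05 there were 421 (4.76%) higher and 472 (5.33%) lower. Without the 2 high HC+RSV livers 0 genes passed in either direction, while 409 were higher and 549 lower at an unadjusted p under 0.05. The r of the 6 genes called higher was then smaller, at 0.490 to 0.664, and that of the 1 called lower was not. Without the whole HC+RSV group 0 passed higher and 1 lower, Reep5 at r = -0.831 (limma adjusted p = 0.0226), which was named after its value was seen.

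Usp2 had the highest r of all genes with probe 1 of Ciart over the 32 livers. Its log2 levels were 6.19 at the lowest, 6.88 at the median and 7.23 at the highest in HC, 4.75, 6.61 and 8.73 in HC+RSV, 8.47, 8.83 and 9.25 in HC+EZE and 8.06, 8.83 and 9.52 in HC+RSV+EZE. Within groups it correlated with Ciart at r = 0.843 (rho = 0.738, n = 32, permutation p = 2e-05 for r and 4e-05 for rho over 100000 resamples within groups, limma adjusted p = 6.76e-06). The smallest p these resamples can give is 1e-05. Permutation p values here and below are not adjusted for the choice of a gene among all 8852. By group, with 8 livers each, r was 0.586 (HC), 0.961 (HC+RSV), 0.146 (HC+EZE) and 0.794 (HC+RSV+EZE). Usp2 thus tracked Ciart closely in HC+RSV and HC+RSV+EZE and hardly in HC+EZE, the group with the lowest SD of both. The part of the smaller spread in this was not tested, and Per2 had r = 0.672 with Ciart in HC+EZE.

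Without the 2 high HC+RSV livers r for Usp2 was 0.664 (limma adjusted p = 0.172), and without the whole HC+RSV group it was 0.635 (adjusted p = 0.0708). With chip as a block r was 0.898. Leaving out the 4 least correlated arrays gave 0.813, and probe 2 of Ciart gave 0.809. The direction held in all of these and the call was lost in the first 2. The first rank of Usp2 was not kept in all of them. Without the 2 high HC+RSV livers Ddc (-0.721) and Slc25a11 (0.687) had a larger absolute r, and with probe 2 of Ciart Zfyve21 (0.816) did. By rho over all livers Acy1 was higher, at 0.820 against 0.738 for Usp2. Usp2 had 2 further probes, detected on 9 and 10 arrays, which followed Ciart at only 0.190 and 0.102. They were 0.29 and 0.18 higher in HC+EZE than in HC where the bright probe was 2.04 higher, so the result is that of 1 probe.

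The genes ranked next by r over all livers do not belong to the clock list. Acy1, which encodes aminoacylase 1, had r = 0.763 (rho = 0.820, permutation p = 1e-05, limma adjusted p = 0.0130), with values by group of 0.818 (HC), 0.859 (HC+RSV), 0.298 (HC+EZE) and 0.836 (HC+RSV+EZE). Its levels ran from 8.63 to 10.09 over all livers. The proprotein convertase gene Pcsk4 followed at 0.746, and the sialidase gene Neu2 at 0.707. Csrnp1, a nuclear protein gene, reached 0.700 and Inmt, an indolethylamine methyltransferase, 0.677. These 4 passed as well (limma adjusted p = 0.0058, 0.0342, 0.0310 and 0.0310). Csrnp1 had r = 0.0567 in HC, and Neu2 had -0.572 among the 6 remaining HC+RSV livers once the 2 high ones were left out.

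The other genes among the 10 with the highest r did not pass. They were Zfyve21 (0.733), the mitochondrial carrier Slc25a11 (0.705), Tmem131l (0.683) and Per2 (0.654). The other probes of Slc25a11, both detected on all arrays, reached 0.194 and 0.339, and the 3 other probes of Pcsk4 0.330 to 0.519. Acy1 and Tmem131l each held 1 E-box in their windows, and 5 of the 30 looked-up genes with a window held at least 1, Ciart included. Usp2, Neu2, Csrnp1, Inmt and Ddc held 0, and Pcsk4 and Per2 had no window. Some genes had more than 1 window, and the 6.02% given above is a share of windows. No matching share of genes was counted. The context is shown for Acy1, the only gene that held an E-box and passed in the fit, beside the 3 of Ciart, with the E-box in capitals.
Acy1, E-box at -8: ccgcccaggcCACGTGgt
Ciart, E-box at -116: catctagagtCACGTGttgccggtaa
Ciart, E-box at -58: cagggggaggCACGTGcagaaccgca
Ciart, E-box at -44: tgcagaaccgCACGTGtctgggaggg

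At the opposite end, Ddc was the gene that passed as lower. It encodes aromatic L-amino acid decarboxylase, which makes dopamine and serotonin. Its levels at the lowest, median and highest were 8.17, 8.85 and 9.47 in HC and 6.58, 7.84 and 8.62 in HC+RSV+EZE. Within groups r was -0.683 (rho = -0.709, permutation p = 2e-05, limma adjusted p = 0.0310), with values by group of -0.289 (HC), -0.846 (HC+RSV), -0.458 (HC+EZE) and -0.951 (HC+RSV+EZE). Its r without the 2 high HC+RSV livers was -0.721 (adjusted p = 0.0816), so the size held while the call did not. With probe 2 of Ciart r was -0.503 (adjusted p = 0.240).

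Nol10 (-0.695), Snx13 (-0.684), Wdr75 (-0.652) and Map7d1 (-0.650) complete the 5 lowest and did not pass. Snx13 encodes a sorting nexin, and Nol10 and Wdr75 encode nucleolar proteins. All 15 genes at the ends of the ranking had the same sign in 4 of 4 groups, which the ranking by pooled r favours. The chip block kept 5 of the 7 calls: Usp2, Acy1, Csrnp1, Inmt and Ddc. Probe 2 of Ciart called 16 genes higher and 0 lower (468 lower at an unadjusted p under 0.05), with 6 of the 7 calls of probe 1 among them.

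The clock list held 28 genes, of which 22 were measured. Of these 1 passed as higher (Usp2) and 0 as lower, against the shares of 0.0678% and 0.0113% of all genes given above. At an unadjusted p under 0.05 there were 8 higher and 3 lower, 50% of the list against 10.1% of all genes. An absolute r above 0.5 was found for 7 of 22 members (31.8%) and for 155 of 8852 genes (1.75%). The median absolute r was 0.305 in the list and 0.168 over all genes. The list was chosen with earlier results of these data known, so these counts are a description. For comparison, the list of fasting and glucocorticoid genes had 14 of 16 members measured, 0 called and a median absolute r of 0.121.

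Among the clock list, the activator genes had negative and the Period genes positive r with Ciart, none of them past the threshold over all genes. Clock had r = -0.592 (rho = -0.486, limma adjusted p = 0.162) and Arntl -0.589 (rho = -0.508, adjusted p = 0.131), ranks 8838 and 8837 of 8852. Arntl had the same sign in all 4 groups, from -0.766 in HC+RSV to -0.338 in HC+RSV+EZE, while Clock was at 0.234 in HC+EZE. Arntl was detected on 8 HC, 5 HC+RSV, 2 HC+EZE and 2 HC+RSV+EZE arrays, so most of its values in the ezetimibe groups lie at background. Without the 2 high HC+RSV livers the values were -0.426 for Clock and -0.370 for Arntl.

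Per2 had r = 0.654 (rho = 0.682, permutation p = 0.00166, limma adjusted p = 0.0524). Its r was similar across groups, with values by group of 0.584 (HC), 0.618 (HC+RSV), 0.672 (HC+EZE) and 0.805 (HC+RSV+EZE). Without the 2 high livers it was 0.579, and with probe 2 of Ciart 0.761 (limma adjusted p = 0.0017). The other probes of Per2 had lower r, 0.520 for one detected on all 32 arrays and 0.190 for one detected on 9. Per3 had r = 0.631 (adjusted p = 0.0661), with 0.213 to 0.848 by group, and was detected on 22 of 32 arrays. Per1 had r = 0.564 (adjusted p = 0.171), with 0.974 in HC+RSV and -0.105 in HC+EZE, and its other probe had 0.727. Cry2 stood at 0.356, with -0.371 in HC and 0.958 in HC+RSV+EZE.

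The output factors of the clock differed among themselves. Dbp had r = 0.606 (limma adjusted p = 0.0815), with 0.735 in HC+RSV, 0.907 in HC+RSV+EZE and -0.160 in HC+EZE. Tef stood at 0.370 and Hlf at -0.242, and Nfil3, which represses at D-boxes that Dbp activates, at -0.434. The REV-ERB receptor genes, which repress Arntl, had 0.361 (Nr1d1) and 0.123 (Nr1d2), and Rora had 0.232. The remaining members Bhlhe40, Csnk1d, Csnk1e, Btrc, Nampt, Noct, Wee1 and Alas1 lay between -0.254 and 0.132. With probe 2 of Ciart, Usp2, Per3, Per2 and Dbp passed over all genes.

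**Figure D3:**
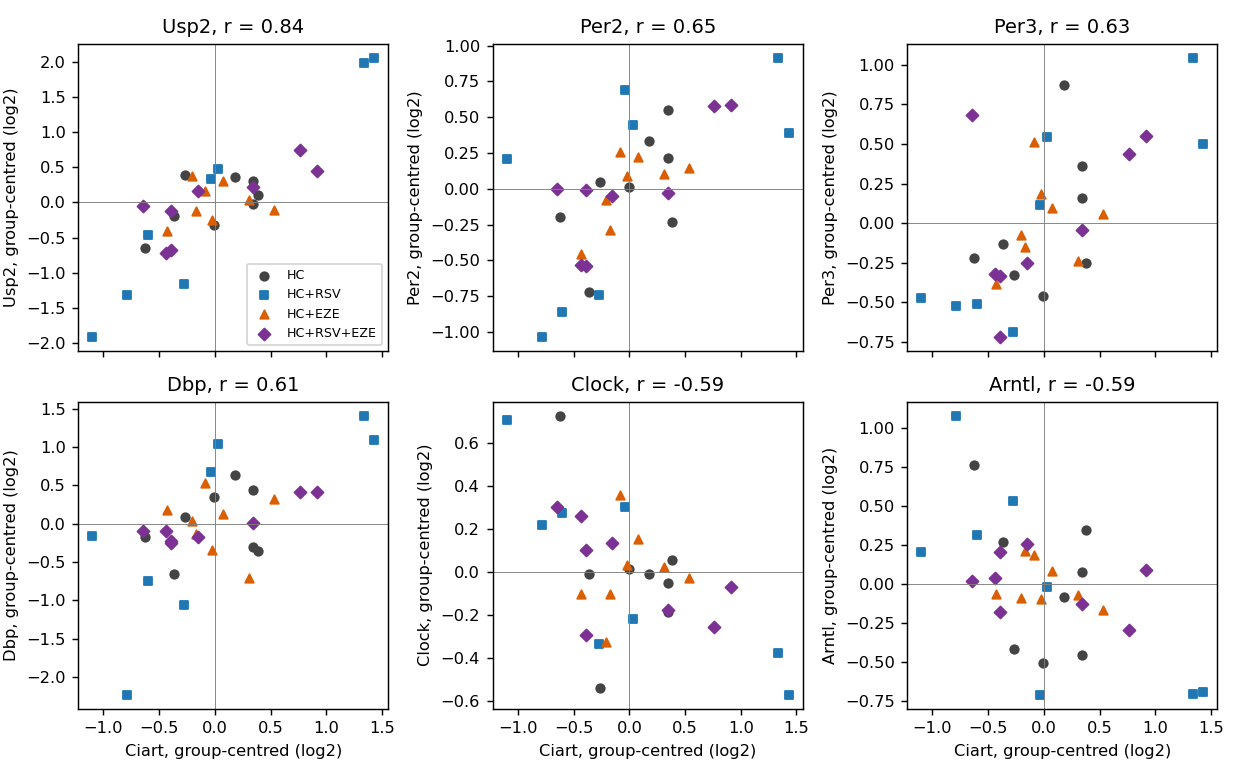
Level of 6 clock list genes against Ciart probe 1 in the 32 livers, each minus its group mean (log2), with colour and shape giving the diet group and r pooled over groups. The 2 HC+RSV livers at the right end lie high for Usp2, Dbp and Per3 and low for Clock and Arntl.

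The group with both drugs and the group with ezetimibe alone were also fitted by themselves. In these 16 livers 162 genes passed as higher and 332 as lower, with Ddc at r = -0.867 (limma adjusted p = 0.0042), Cry2 at 0.819 (0.0105) and Per2 at 0.772 (0.0200). With chip as a block in the same livers 0 passed in either direction (96 higher and 163 lower at an unadjusted p under 0.05). The values were then -0.614 for Ddc, 0.435 for Cry2 and 0.522 for Per2. The 3 highest Ciart livers all lay on chip 1. These fits were chosen after the data were seen.

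**Figure D4:**
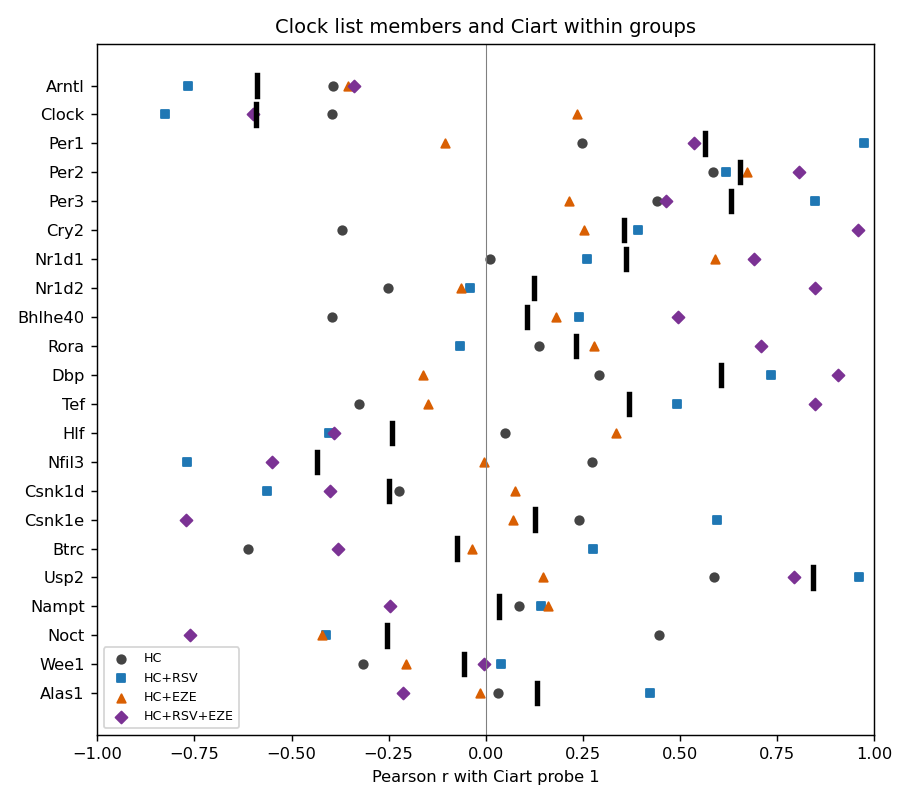
Pearson r of each measured clock list member with Ciart probe 1, pooled after removal of group means (black bars) and within each group of 8 livers (coloured symbols). Per2 lies between 0.584 and 0.805 in all 4 groups, while most other members scatter over a wide range.

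The ezetimibe differences of the clock list set Ciart beside its partners. In HC+EZE against HC 1 of 22 members passed as higher and 0 as lower, against 0.0339% and 0.0113% of all genes. In HC+RSV+EZE against HC, with the same shares, 2 passed as higher. In HC+RSV+EZE against HC+RSV 2 passed as higher, against 0.0452%, and 0 as lower, against 0.0113%. At an unadjusted p under 0.05 the same limma fits had 7, 6 and 9 members higher and 2, 3 and 3 lower. Of the 8852 genes other than Ciart, 129, 256 and 274 were higher and 192, 403 and 374 lower at that threshold. With rosuvastatin 0 members and 0% of all genes passed in the limma fit. At an unadjusted p under 0.05 there were 0 members higher and 2 lower in HC+RSV against HC, and 1 higher and 0 lower when the statin was added to ezetimibe. Of the 8852 genes, 111 were higher and 126 lower in the former, and 79 and 72 in the latter. The median difference of the list in the 3 ezetimibe comparisons was 0.09, 0.13 and 0.17, and that of all genes was -0.0020, -0.0077 and -0.0024. The comparisons share control livers, so likeness between their values is no separate support. The list was also chosen with earlier results of these data known. These counts, and the calls of single members below, are therefore a description and no independent evidence beside Ciart.

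The members that passed were Usp2 in all 3 ezetimibe comparisons and Per1 in those with both drugs. Usp2 was 2.04 ± 0.38 higher in HC+EZE than in HC (limma adjusted p = 0.0162), 1.94 higher in HC+RSV+EZE than in HC (0.0267) and 2.11 higher in HC+RSV+EZE than in HC+RSV (0.0097). In this processing these values were larger on the log2 scale than those of Ciart. Whether the genes differ in this was not tested. Per1 was 1.37 ± 0.21 higher in HC+RSV+EZE than in HC (limma adjusted p = 0.0020) and 1.20 higher than in HC+RSV (0.0097), against 0.92 in HC+EZE over HC (0.135). With position as a covariate 0 members passed in each of the 3 comparisons. In HC+EZE against HC 0 passed with the authors' values or without HC replicate 1 as well.

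The members that did not pass had these differences in HC+EZE against HC, HC+RSV+EZE against HC and HC+RSV+EZE against HC+RSV. Dbp stood at 0.98, 0.95 and 1.17, Per3 at 0.71, 0.63 and 0.47 and Per2 at 0.61, 0.38 and 0.59. Arntl stood at -0.80, -0.68 and -0.64 and Clock at -0.57, -0.66 and -0.58. Nampt, the enzyme that limits NAD salvage, stood at 0.54, 0.56 and 0.80. Tef stood at 0.52, 0.21 and 0.05 and Alas1 at 0.46, 0.21 and 0.53. Nfil3 stood at -0.15, -0.50 and -0.86 and Noct at 0.03, -0.12 and 0.77. Nr1d1 stood at 0.03, 0.02 and -0.29 and Cry2 at 0.08, 0.18 and 0.01. The remaining members Nr1d2, Bhlhe40, Rora, Hlf, Csnk1d, Csnk1e, Btrc and Wee1 lay between -0.20 and 0.41 in these comparisons. The list thus did not differ as a block.

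**Figure D5:**
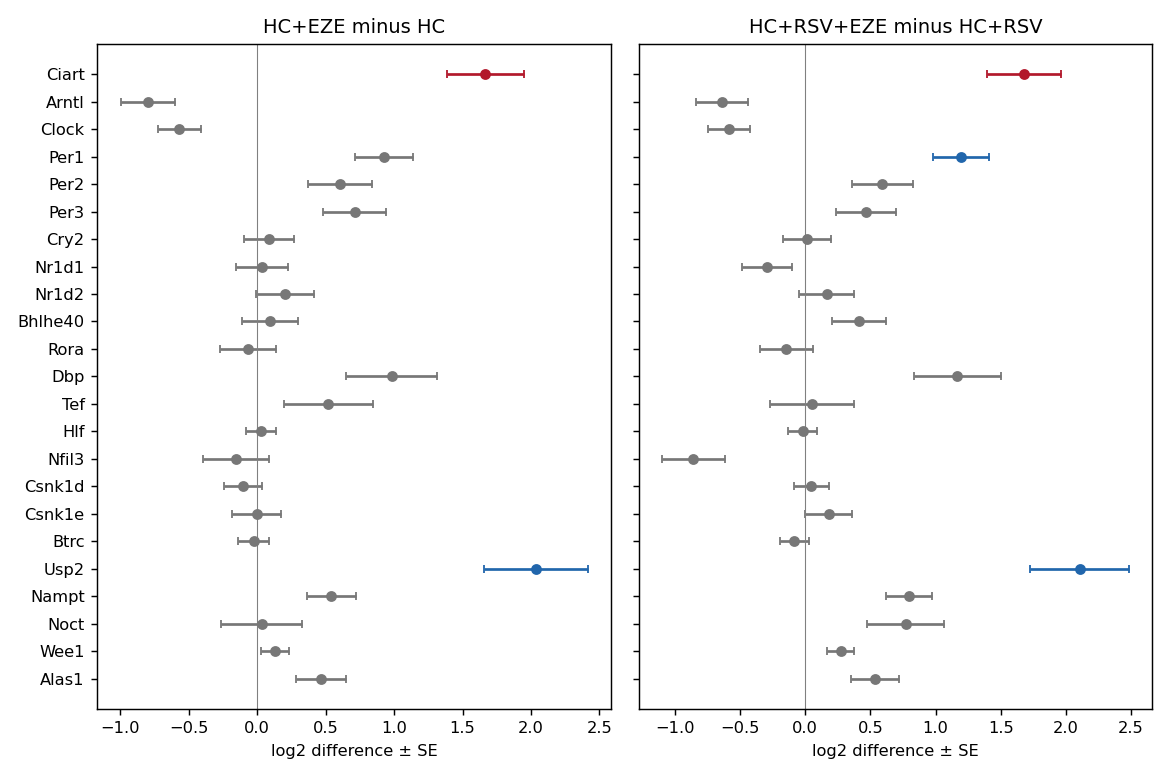
Log2 difference ± SE from the limma fit for Ciart (red) and the 22 measured clock list members in HC+EZE minus HC and in HC+RSV+EZE minus HC+RSV, with members that passed over all genes in blue. Ciart stands at 1.67 and 1.68, Usp2 lies above it, and Arntl and Clock lie below 0.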

How the data were processed

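Per the files, the authors deposited each probe's intensity on each array without scaling the arrays to each other. Some values are below 0, so a background had been subtracted, by a method not given in the sources used here. They also deposited a detection fraction per intensity, which was turned into a detection p as 1 minus the fraction. A second deposited table has the authors' log2 values for 15505 of the 25697 probes, and the submitters' processing notes name limma. The normal-exponential background model of limma 3.58.1 (offset 16, R 4.3.3) was applied to the intensities before quantile normalization and log2 transformation. Of the probes, 12844 had a detection p below 0.05 on 8 or more arrays and were kept. Symbols from the platform annotation were brought up to date by Entrez ID (14548 of 14557 probes), by accession (7) or left as listed (2), and the brightest probe stood for a gene. Sequences were searched with Python 3.11.15.

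Groups were compared in 1 limma fit of all 32 arrays (28 residual degrees of freedom). Association used the same model with group-centred Ciart added, with Benjamini-Hochberg adjustment over all genes. The script was tested on simulated data. Named genes were both Ciart probes, the 10 highest and 5 lowest r and the measured clock list. The gene, the lists and the rules were chosen with earlier results of these data known. The highest correlation between 2 arrays was 0.988, and all were treated as separate samples. The alternatives covered background, scaling, filter, chip, position, replicate number, weights and left-out arrays.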

Additional observations from a re-analysis of the deposited data

Results flagged for a closer look

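In each group of 8 livers the highest and lowest value of each named gene was set against the rest, and 7 of 148 groups held a liver far from the others. Chance alone flags about 1 in 20 groups. In HC+EZE, replicate 7 stood apart for 3 genes that ranked high or low with Ciart: Acy1 at 10.09 (others up to 9.54), Inmt at 13.68 (others up to 12.94) and Nol10 at 5.64. Its Ciart level was 7.17, against a group median of 7.04. Replicate 3 of HC+EZE, the liver with the highest Ciart of its group, had Nr1d1 at 7.77 (others up to 7.29) and Noct at 6.87 (others from 7.98). Clock stood at 8.36 in HC replicate 1 (others up to 7.69) and Csnk1d at 8.30 in HC+EZE replicate 1 (others up to 7.64), both on arrays with a low mean correlation to the rest.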

How the results depend on the processing

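The ezetimibe differences of Ciart kept their direction under every alternative run that left array position out of the fit. Leaving out single livers gave 1.58 to 1.73 for HC+EZE against HC, 1.63 to 1.85 for HC+RSV+EZE against HC and 1.52 to 1.89 for HC+RSV+EZE against HC+RSV. With position as a covariate they were 0.28 ± 1.15, 0.041 ± 1.40 and 0.29 ± 1.15 (± SE). These errors exceed the values, so that fit cannot settle the direction. Without background correction and with the authors' values the last was 2.50, and with the authors' values the others were larger as well.

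The rosuvastatin differences changed sign but never passed, and the interaction, given with no test, changed sign too. HC+RSV against HC was -0.25 with position and -0.0084 with the chip block, and -0.18 both without background correction and with the authors' values, and -0.13 to 0.24 when leaving out single livers. HC+RSV+EZE against HC+EZE was -0.0081 with equal medians, -0.24 with position, -0.033 with array weights and -0.020 on probe 2 (-0.036 to 0.19). The interaction was -0.15 with equal medians, -0.11 with cyclic loess, -0.063 with array weights, -0.080 without the 4 arrays and -0.039 on probe 2 (-0.14 to 0.22).

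Of the genes associated with Ciart, 6 higher and 1 lower, the counts (higher, lower) were 3 and 0 with equal medians, 15 and 4 with cyclic loess, 10 and 3 with no filter, 76 and 51 with array weights, 16 and 0 with probe 2, and 0 and 0 with ranks of Ciart. Higher calls were 19 without the 4 arrays; lower calls were 2 without background correction, with the authors' values and with the strict filter, and 4 with chip as a block. Both were 0 without the 2 high HC+RSV livers, 0 higher without HC+RSV, 162 and 332 in the ezetimibe groups alone and 0 and 0 there with chip. Leaving out single livers gave 2 (without HC+RSV replicate 8) to 11 (without HC+EZE replicate 7) higher and 0 to 3 lower. The labels give the livers no shared source by number. For this reason the numbers were not taken as pairing. Same-numbered livers correlated above 0.1 in 31 of 48 pairs, not in all. A liver correlated best with its own number in 20 of 96 cases, above the 1 in 8 that chance gives with 8 livers per group. These counts therefore do not exclude a structure by number. Same-numbered HC+RSV and HC+EZE livers shared a chip in 8 of 8 pairs, and 7 of these exceeded 0.1. The replicate block gave 2 higher and 0 lower.

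Clock list calls were 0 in HC+EZE against HC without background correction, with equal medians, the authors' values or position (0 to 2 when leaving out livers). In HC+RSV+EZE against HC they were 1 under the first 3 of these and 0 with position (1 to 3). Against HC+RSV they were 0 with equal medians, position or only those groups (2 to 4).

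Some r values changed sign, none of them past the threshold. In the ezetimibe groups with chip these were Arntl 0.019, Clock 0.201, Btrc 0.522, Dbp -0.062, Nfil3 0.060, Noct 0.256, Per1 -0.027 and Tef -0.268. Without the 2 high livers, without HC+RSV and in the ezetimibe groups, Alas1 had -0.030, -0.090 and -0.145, Nampt -0.053, -0.026 and -0.093 and Csnk1e -0.126, -0.334 and -0.518. Csnk1e also had -0.166 with array weights and -0.117 without the 4 arrays. Nampt had -0.013 without background correction, -0.014 with the authors' values and -0.0049 with position. Nr1d2 had -0.0019 under the first 2 of these and -0.039 with the replicate block. Bhlhe40 had -0.031 with that block and -0.010 without HC+RSV, Csnk1d 0.020 and Btrc 0.128 with equal medians, and Btrc 0.0060 without the 4 arrays. Leaving out single livers, the values ran from -0.290 to 0.039 for Btrc, -0.078 to 0.197 for Csnk1e, -0.062 to 0.102 for Nampt and -0.125 to 0.053 for Wee1. The causes were not tested. Dim probes limit Arntl, Per3 and probe 2 of Ciart in HC+RSV, where values lie at background.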
